A study of Mus musculus with 18 samples.

Results

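Transcription factors of the AP-1, Egr and Klf families were followed across 6 culture conditions of mouse macrophages. The set held 10 of the 22598 genes in the count tables, chosen by name and found by Ensembl identifier: Fos, Fosl2, Jun, Junb, Jund and Atf3 of the AP-1 group, Egr1, and Klf2, Klf4 and Klf6. RNA sequencing had been done on primary macrophages of wild-type mice, differentiated in culture from marrow precursors (BMDMs). Cells were kept for 18 h with interferon-gamma (IFNg) and tumour necrosis factor (TNF), with IFNg and lipopolysaccharide (LPS, a bacterial cell wall component), with IFNg and hypoxia (low oxygen), with IFNg and interleukin-1 beta (IL1b), with IFNg alone, or as a control (ctrl in the labels). Each of these 6 groups had 3 libraries. No addition was made without IFNg, so an addition on its own cannot be told apart from its combination with IFNg, and the 4 additions share the same 3 IFNg libraries as their comparison. Doses, the oxygen level, the sex and age of the mice and any pooling are not given in the labels, which also leave unstated whether replicate libraries stand for separate mice or cultures. The p-values then measure only the spread between these libraries, which may be technical.

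AP-1 is a dimer of basic leucine zipper (bZIP) proteins: Jun proteins pair with each other or with Fos proteins, while Fos proteins need a Jun partner to bind DNA, and Atf3 joins the same dimers, often as a repressor. The genes of Fos, Jun, Junb, Atf3 and Egr1 are classical immediate-early genes, switched on within minutes by MAP kinase signalling from growth factors, cytokines and stress, and their messages are usually short-lived, whereas Jund is more evenly expressed. Egr1 and the Klf proteins bind GC-rich sites through zinc fingers. In macrophages Klf2 is known as a brake on inflammatory activation, Klf4 as a factor of monocyte differentiation and alternative polarization, and Klf6 as a promoter of inflammatory gene expression.

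The promoters of Fos, Jun, Atf3 and Klf2 are shown, 4 genes with different patterns across the additions. They include every gene of the set in which a motif of Mef2 factors was found. The 250 bases before the RefSeq start of each are printed 5′ to 3′ on the gene's own strand (build GRCm38.p6). Capitals mark a kappaB motif and a TATA box (TATAAA) in Fos and a motif of Mef2 factors in Jun, Atf3 and Klf2, counted so that position -1 is the base before the start. Fos lies at chr12:85473640-85473889 (plus strand), Jun at chr4:95052223-95052472 (minus strand), Atf3 at chr1:191183334-191183583 (minus strand) and Klf2 at chr8:72318812-72319061 (plus strand).
Fos: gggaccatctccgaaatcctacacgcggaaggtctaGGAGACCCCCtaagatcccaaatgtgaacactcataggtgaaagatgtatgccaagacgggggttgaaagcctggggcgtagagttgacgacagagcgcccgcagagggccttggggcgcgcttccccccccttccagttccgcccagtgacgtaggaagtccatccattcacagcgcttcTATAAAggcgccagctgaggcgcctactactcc
Jun: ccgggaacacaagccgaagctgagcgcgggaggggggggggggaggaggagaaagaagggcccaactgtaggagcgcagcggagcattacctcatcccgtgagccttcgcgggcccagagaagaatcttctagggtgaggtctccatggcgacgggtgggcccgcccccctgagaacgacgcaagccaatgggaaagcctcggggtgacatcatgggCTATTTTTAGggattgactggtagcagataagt
Atf3: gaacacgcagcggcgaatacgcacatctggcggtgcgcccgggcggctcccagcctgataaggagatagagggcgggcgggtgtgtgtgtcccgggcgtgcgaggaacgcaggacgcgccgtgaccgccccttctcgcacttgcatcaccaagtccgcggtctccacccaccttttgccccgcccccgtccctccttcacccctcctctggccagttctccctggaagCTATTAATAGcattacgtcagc
Klf2: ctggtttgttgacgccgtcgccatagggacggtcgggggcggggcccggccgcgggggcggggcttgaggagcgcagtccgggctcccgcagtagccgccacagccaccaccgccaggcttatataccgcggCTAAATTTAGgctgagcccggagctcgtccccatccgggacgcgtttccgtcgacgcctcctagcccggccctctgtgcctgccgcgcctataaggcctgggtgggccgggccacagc
The kappaB motif of Fos stood at -214 to -205 and its TATA box at -33 to -28, and the Mef2 motifs stood at -33 to -24 in Jun, -22 to -13 in Atf3 and -118 to -109 in Klf2. A promoter was found for 9 of the 10 members (all but Egr1), and 8 motifs were searched on both strands of the same 250 bases in all 32851 RefSeq mouse promoters. The Mef2 motif was in 3 of the 9 member promoters and in 0.508% of all promoters. A kappaB motif was in 2 (Fos and Fosl2, 3.9% of all), the core bound by hypoxia-inducible factors (ACGTG) in 3 (Jund, Klf4 and Klf6, 16.57%), the GC box (GGGCGG) in 7 (32.74%), and the TATA box in 1 (12.37%). The AP-1 motif (TGANTCA, 6.75% of all), the cyclic AMP response element (TGACGTCA, 1.55%) and the CArG box of serum response factor (1.47%) were in 0 of the 9. Only full matches to each pattern within the 250 bases were counted. Variants of these motifs and sites outside the window would be missed, so an absence here does not mean that a gene lacks such sites. The kappaB motif of Fosl2 matched at 2 overlapping positions, and the hypoxia core of Klf4 and of Klf6 matched on both strands at overlapping positions. The RefSeq starts of Atf3 and Fosl2 lie inside the longer gene bodies given below. The windows of Klf2 and Klf6 end at 72319061 and 5861488, a little past their gene starts of 72319033 and 5861482, and so hold a few bases of the gene bodies. The window of Jund ends at 70697738, well before the gene start of 70698949 given below, so it does not adjoin that gene body. These matches describe letters in a window; binding was not measured.

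The 18 libraries held 12270565 to 20952799 counts, and all 10 genes passed the filter on low counts, with a lowest count in any library of 28 for Egr1 and 98 for Jund. Libraries of a group differed from each other by more than sampling noise (chi-square per degree of freedom 11.9 to 50.6), the largest value being that between the first and the third IFNg and LPS libraries. All 8 macrophage markers were present, with a summed level of 13538 to 26086 CPM. The T cell genes Cd3e, Cd3d and Cd3g, the B cell genes Cd79a, Ms4a1 and Pax5 and all 5 NK cell markers were at 0 or at the level of single counts. In such bulk samples, fewer cells of a type and less RNA per cell cannot be told apart. The third IFNg and LPS library stood apart by base composition, as given at the end. Member calls with LPS over IFNg that changed without it are given both ways. The levels, shares and ratios with LPS include it.

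**Figure D1:**
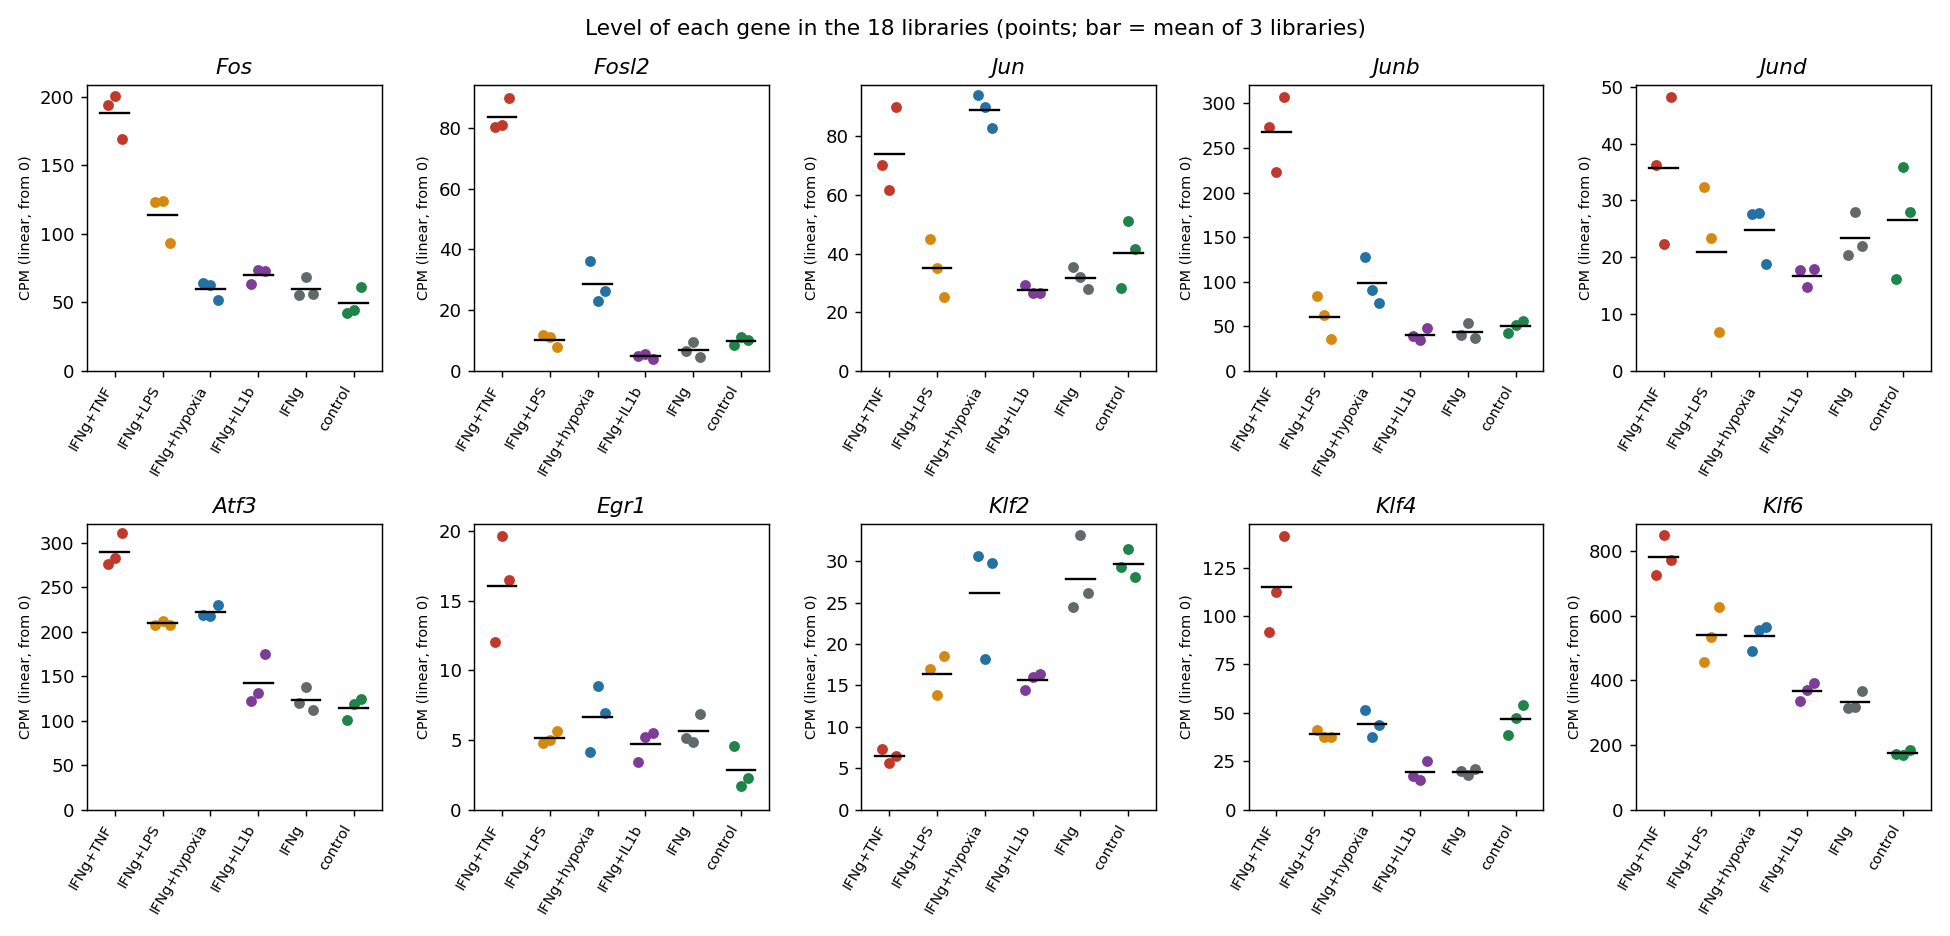
Level of the 10 genes in CPM (counts-per-million, linear axis from 0) in each of the 18 libraries, 3 per group; points are libraries and the bar is the group mean. With IFNg and TNF, Fosl2 and Junb lie far above every other group and Klf2 lies below every other group; with IFNg and hypoxia, Jun and Fosl2 lie above IFNg while Fos does not.

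Levels below are in CPM (a gene's counts scaled to the library's TMM-adjusted total), and changes are log2 fold changes ± standard error (SE) from edgeR's quasi-likelihood test, called at a Benjamini-Hochberg adjusted p under 0.05. With TNF added to IFNg, 8 members rose and Klf2 fell; Jund did not pass the test. These 9 of 10 stand beside 44.7% of the 11563 tested genes called in that comparison, 22.1% higher and 22.6% lower. With hypoxia, 6 members rose (Fosl2, Jun, Junb, Atf3, Klf4 and Klf6) and 0 fell, beside 25.2% of tested genes called, 13.5% higher and 11.8% lower. With LPS, 4 rose (Fos, Atf3, Klf4 and Klf6) and Klf2 fell, beside 20.3% called, 10.2% higher and 10.1% lower. With IL1b, edgeR called 0 members, 1 had an unadjusted p under 0.05 and DESeq2 called 1 (Klf2), beside 0.303% of tested genes called, 0.268% higher and 0.0346% lower. IFNg alone against control raised Klf6 and lowered Klf4, 2 of 10 beside 23.6% called, 13.5% higher and 10% lower. The median log2 fold change of the 10 was 1.37 with TNF, 0.77 with hypoxia, 0.53 with LPS and -0.16 with IL1b, and -0.13 for IFNg against control. Over all tested genes these medians lay between -0.049 and -0.00057. Scaling to the totals implied by the RPKM values moved the median of all tested genes by -0.32 with TNF, -0.25 with hypoxia, -0.077 with LPS and -0.15 for IFNg against control, and every member called in these 5 comparisons kept its direction and its call.

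**Figure D2:**
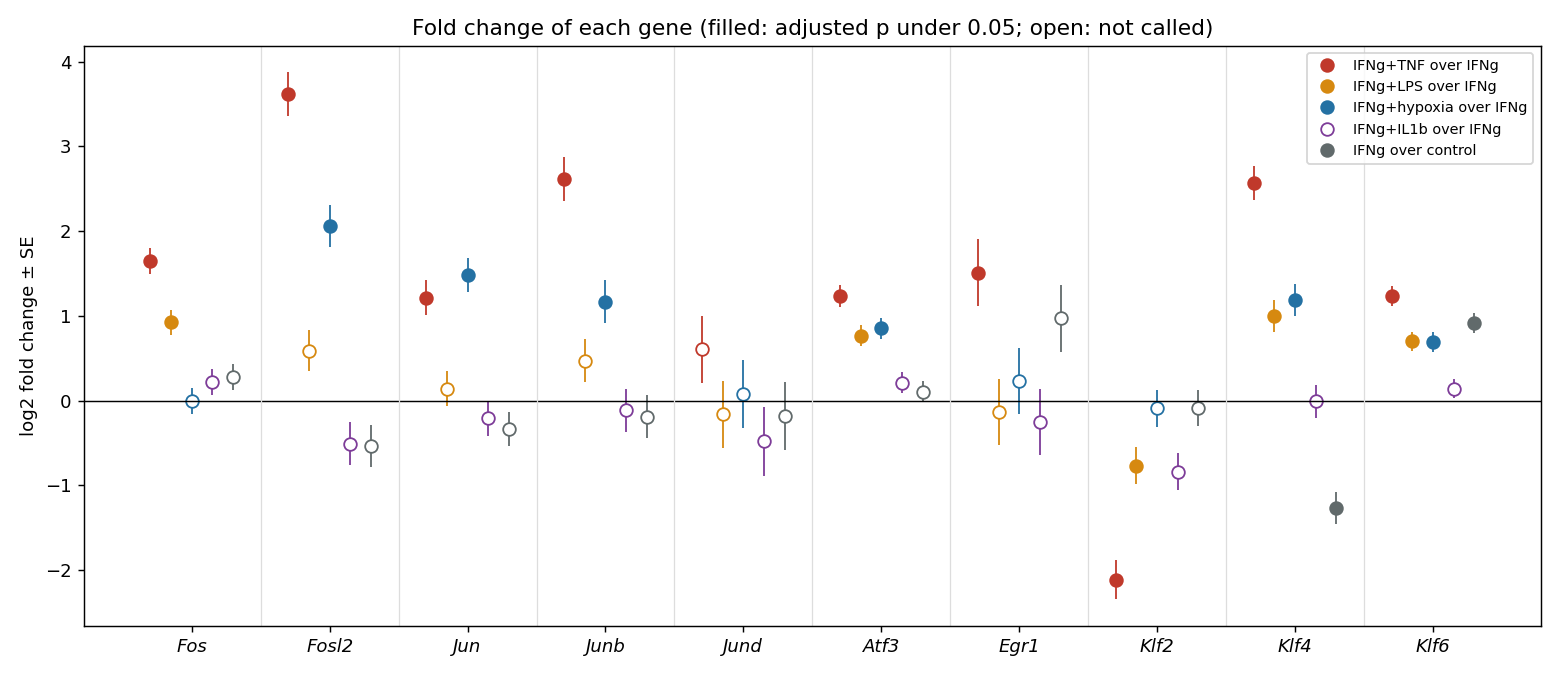
Log2 fold change ± SE (linear axis) of each gene for the 4 additions over IFNg and for IFNg over control; filled points passed the adjusted p threshold of 0.05 and open points did not. All 10 points of IL1b are open, Klf2 is filled below 0 with TNF and LPS, and Klf4 is filled below 0 for IFNg over control and above 0 with TNF, LPS and hypoxia.

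Markers of other cells moved in some of the same comparisons, and their part in the members' results was not tested. Of the 10 neutrophil and granulocyte precursor genes, 9 were tested and all 9 fell with TNF, with a summed level of 11 to 15 CPM with TNF against 108 to 129.9 CPM with IFNg. With LPS 7 fell (summed 28.9 to 44.4 CPM), and with hypoxia (66.4 to 95 CPM) and IL1b (85.7 to 100.5 CPM) 0 changed. Elane was at 0 in the TNF libraries. Of 5 dendritic cell genes 1 fell with TNF and 1 with LPS (summed 17.0 to 18.3 CPM with TNF and 22.8 to 33.5 CPM with LPS against 88.5 to 94.6 CPM with IFNg), and IFNg against control raised 2. Of 3 tested endothelial genes 1 rose and 1 fell with TNF, with Tie1 at 0 throughout and a summed level of 51.2 to 89.0 CPM with TNF against 38.9 to 48.6 CPM with IFNg. The T cell list held 3.29 to 6.50 CPM with TNF against 0.0521 to 1.57 CPM with IFNg, the fibroblast list 6.50 to 6.91 CPM against 4.69 to 6.29 CPM, the B cell list 0.167 to 1.57 CPM against 4.38 to 6.84 CPM, and the erythroid list at most 0.406 CPM in any library. Cd79b, the 1 B cell gene above the filter, fell with TNF and LPS and rose with hypoxia (summed 12.1 to 16.2 CPM with hypoxia). Of the 8 macrophage markers, 2 rose and 4 fell with TNF, 2 rose with LPS, 3 rose with hypoxia and 0 changed with IL1b.

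Fos (ENSMUSG00000021250, mm10 chromosome 12, 85473890 to 85477273, 4 coding exons) encodes the founding Fos protein. Its level was 194, 201 and 169 CPM with IFNg and TNF, 123, 124 and 93.5 CPM with IFNg and LPS and 64.2, 62.7 and 52.0 CPM with IFNg and hypoxia. It was 63.2, 73.2 and 72.9 CPM with IFNg and IL1b, 55.1, 68.3 and 55.9 CPM with IFNg and 42.5, 44.3 and 60.8 CPM in control. The TNF libraries lay above the LPS libraries, and both lay above the other 4 groups, which together spanned 42.5 to 73.2 CPM. Fos rose 3.14-fold with TNF (1.65 ± 0.15, edgeR adjusted p = 9.06e-10) and 1.90-fold with LPS (0.92 ± 0.15, adjusted p = 3.79e-05). With hypoxia it was at -0.0041 ± 0.15 (95% interval -0.30 to 0.29, adjusted p = 0.993) and with IL1b at 0.22 ± 0.15 (95% interval -0.072 to 0.52). IFNg against control gave 0.28 ± 0.15 (adjusted p = 0.197), which passed without the third control library (0.47, adjusted p = 0.0341).

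Fosl2 (ENSMUSG00000029135, chromosome 5, 32135801 to 32157842, 4 coding exons) encodes Fra-2, a Fos protein without the strong activation domain of Fos. It had the widest range of the 10, a 17.5-fold span between its highest and lowest group mean. Its level was 80.2, 81.1 and 89.9 CPM with IFNg and TNF, 11.8, 11 and 7.87 CPM with IFNg and LPS and 36.1, 22.9 and 26.3 CPM with IFNg and hypoxia. It was 4.87, 5.49 and 3.96 CPM with IFNg and IL1b, 6.46, 9.42 and 4.51 CPM with IFNg and 8.58, 11 and 10.1 CPM in control. TNF libraries were highest and hypoxia libraries next, with no overlap between them or with the rest. Fosl2 rose 12.3-fold with TNF (3.62 ± 0.26, edgeR adjusted p = 5.99e-12) and 4.17-fold with hypoxia (2.06 ± 0.25, adjusted p = 4.03e-07). With LPS it was at 0.59 ± 0.25 (adjusted p = 0.0938), and it passed the test without the third LPS library (0.74, adjusted p = 0.0413) and without the second IFNg library (0.90, adjusted p = 0.0174). IFNg against control gave -0.54 ± 0.25 (adjusted p = 0.123), which passed without the second IFNg library (-0.84, adjusted p = 0.0219) and when scaled to the totals implied by the RPKM values (-0.68, adjusted p = 0.0462).

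Jun (ENSMUSG00000052684, chromosome 4, 95049034 to 95052222, minus strand, 1 coding exon) encodes the Jun protein that is activated by Jun kinases. Its level was 70.2, 61.7 and 90.2 CPM with IFNg and TNF, 45.1, 34.9 and 25.3 CPM with IFNg and LPS and 94.1, 89.9 and 82.9 CPM with IFNg and hypoxia. It was 29.2, 26.7 and 26.7 CPM with IFNg and IL1b, 35.3, 32.1 and 28.0 CPM with IFNg and 28.2, 51.0 and 41.6 CPM in control. Jun was the only one of the 10 whose highest mean was in the hypoxia group, and those libraries overlapped the TNF libraries. Jun rose 2.79-fold with hypoxia (1.48 ± 0.20, edgeR adjusted p = 3.44e-06) and 2.32-fold with TNF (1.22 ± 0.20, adjusted p = 1.70e-05). The difference between TNF and hypoxia was -0.27 ± 0.20 (95% interval -0.66 to 0.12, adjusted p = 0.312). With LPS the value was 0.14 ± 0.20 (95% interval -0.25 to 0.54, adjusted p = 0.711), and the LPS and IFNg libraries overlapped.

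Junb (ENSMUSG00000052837, chromosome 8, 84974484 to 84978718, minus strand, 1 coding exon) encodes a Jun protein that can restrain Jun and in macrophages takes part in inflammatory gene expression. Its level was 273, 223 and 307 CPM with IFNg and TNF, 83.6, 62.5 and 35.3 CPM with IFNg and LPS and 128, 90.8 and 75.9 CPM with IFNg and hypoxia. It was 38.7, 34.0 and 48.3 CPM with IFNg and IL1b, 39.7, 54.1 and 37.0 CPM with IFNg and 42.6, 51.0 and 55.6 CPM in control. The TNF libraries lay above all others, the hypoxia libraries above IFNg, and the LPS libraries spread across the range of the IFNg libraries. Junb rose 6.14-fold with TNF (2.62 ± 0.26, edgeR adjusted p = 1.06e-07) and 2.25-fold with hypoxia (1.17 ± 0.25, adjusted p = 0.00195). With LPS it was at 0.47 ± 0.25 (adjusted p = 0.222). The LPS value passed the test without the third LPS library (0.74, adjusted p = 0.0152) and after a correction for GC content (0.52, adjusted p = 0.0158). The Junb gene body overlaps Prdx2 on the opposite strand, at 0 coding bases.

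Jund (ENSMUSG00000071076, chromosome 8, 70698949 to 70700616, 1 coding exon) encodes the Jun protein that is usually present without stimulation. Its level was 36.3, 22.3 and 48.3 CPM with IFNg and TNF, 32.4, 23.3 and 6.83 CPM with IFNg and LPS and 27.6, 27.8 and 18.8 CPM with IFNg and hypoxia. It was 17.7, 14.7 and 17.9 CPM with IFNg and IL1b, 20.4, 28.0 and 21.9 CPM with IFNg and 16.1, 35.9 and 27.9 CPM in control. The IL1b libraries lay below the TNF, hypoxia and IFNg libraries, the other groups overlapped, and the third LPS library held the lowest value of all 18. Jund passed the test against IFNg in 0 of the 4 additions: the value with TNF was 0.60 ± 0.40 (95% interval -0.18 to 1.39, edgeR adjusted p = 0.239), with LPS -0.16 ± 0.40 (-0.95 to 0.62), with hypoxia 0.077 ± 0.40 (-0.71 to 0.86) and with IL1b -0.48 ± 0.40 (-1.27 to 0.31). These intervals allow changes as large as those called for other members. An antisense gene, Gm11175, covers 919 of the 1023 coding bases of Jund on the opposite strand. No source used here states whether the counting was strand-aware, and reads of the 2 genes may not have been told apart.

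Atf3 (ENSMUSG00000026628, chromosome 1, 191170296 to 191218039, minus strand, 3 coding exons) encodes a stress-induced factor known to repress inflammatory genes in macrophages. Its level was 276, 283 and 311 CPM with IFNg and TNF, 208, 213 and 208 CPM with IFNg and LPS and 219, 218 and 230.4 CPM with IFNg and hypoxia. It was 122, 131 and 175 CPM with IFNg and IL1b, 120.2, 137 and 112 CPM with IFNg and 101, 119 and 124 CPM in control. TNF, LPS and hypoxia libraries all lay above the IFNg libraries. Atf3 rose 2.35-fold with TNF (1.23 ± 0.13, edgeR adjusted p = 5.44e-09), 1.70-fold with LPS (0.77 ± 0.12, adjusted p = 3.77e-05) and 1.81-fold with hypoxia (0.85 ± 0.12, adjusted p = 8.06e-06). With IL1b it was at 0.21 ± 0.12 (95% interval -0.031 to 0.46), and IFNg against control gave 0.10 ± 0.12 (95% interval -0.14 to 0.35, adjusted p = 0.636).

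Except with IFNg and TNF, where Klf2 was lower, Egr1 (ENSMUSG00000038418) had the lowest mean level of the 10. Its level was 12.1, 19.7 and 16.5 CPM with IFNg and TNF, 4.75, 5.0 and 5.64 CPM with IFNg and LPS and 4.11, 8.85 and 6.95 CPM with IFNg and hypoxia. It was 3.45, 5.24 and 5.52 CPM with IFNg and IL1b, 5.11, 4.89 and 6.90 CPM with IFNg and 4.59, 1.71 and 2.24 CPM in control. The TNF libraries lay above all others. Egr1 rose 2.85-fold with TNF (1.51 ± 0.39, edgeR adjusted p = 0.00238). The values with LPS (-0.13 ± 0.39), hypoxia (0.23 ± 0.39) and IL1b (-0.25 ± 0.39) did not pass. All 3 IFNg libraries lay above the 3 control libraries, yet the difference of 0.97 ± 0.40 missed the threshold (edgeR adjusted p = 0.0801); without the first control library it passed (1.51, adjusted p = 0.0118).

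Klf2 (ENSMUSG00000055148, chromosome 8, 72319033 to 72321656, 3 coding exons) was the 1 member that fell with an addition. Its level was 7.28, 5.59 and 6.44 CPM with IFNg and TNF, 16.9, 13.8 and 18.5 CPM with IFNg and LPS and 30.6, 18.1 and 29.8 CPM with IFNg and hypoxia. It was 14.4, 16.0 and 16.4 CPM with IFNg and IL1b, 24.4, 33.1 and 26.1 CPM with IFNg and 29.3, 31.5 and 28.1 CPM in control. The TNF libraries lay below all others, and the LPS and IL1b libraries lay below the IFNg libraries. Klf2 fell with TNF, 4.33-fold lower (-2.11 ± 0.23, edgeR adjusted p = 2.02e-08), and with LPS, 1.70-fold lower (-0.77 ± 0.22, adjusted p = 0.0121). The LPS call was lost after a correction for GC content (-0.62, adjusted p = 0.0720), without the second IFNg library (-0.62, adjusted p = 0.0885) and without the second LPS library (-0.65, adjusted p = 0.0756). With IL1b the value was -0.84 ± 0.22 (95% interval -1.27 to -0.41) and missed edgeR's threshold (adjusted p = 0.148), while DESeq2 (-0.84, adjusted p = 0.0272) and the fit on only the groups compared (adjusted p = 0.0381) called it. With hypoxia it was at -0.090 ± 0.22 (95% interval -0.52 to 0.34).

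Klf4 (ENSMUSG00000003032, chromosome 4, 55527143 to 55532466, minus strand, 5 coding exons) moved down with IFNg and up with 3 of the additions. Its level was 91.9, 112 and 141 CPM with IFNg and TNF, 41.1, 37.7 and 37.5 CPM with IFNg and LPS and 51.5, 37.3 and 43.8 CPM with IFNg and hypoxia. It was 17.3, 15.5 and 25.3 CPM with IFNg and IL1b, 19.7, 17.8 and 20.8 CPM with IFNg and 38.7, 47.5 and 54.1 CPM in control. All IFNg libraries lay below all control libraries, and the TNF, LPS and hypoxia libraries lay above IFNg. IFNg alone lowered Klf4, 2.41-fold (-1.27 ± 0.19, edgeR adjusted p = 9.08e-06). Klf4 rose 5.93-fold with TNF (2.57 ± 0.20, adjusted p = 2.72e-11), 2.0-fold with LPS (1.0 ± 0.19, adjusted p = 2.97e-04) and 2.28-fold with hypoxia (1.19 ± 0.19, adjusted p = 3.32e-05), and with IL1b it was at -0.0083 ± 0.19 (95% interval -0.39 to 0.37). Against control, Klf4 was higher with IFNg and TNF (1.3 ± 0.19, adjusted p = 1.58e-06), did not pass with LPS (-0.27 ± 0.19) or hypoxia (-0.079 ± 0.19), and was lower with IL1b (-1.28 ± 0.19, adjusted p = 7.90e-06). Scaled to the totals implied by the RPKM values, the LPS and hypoxia differences from control passed as lower (-0.49, adjusted p = 0.0361, and -0.47, adjusted p = 0.0369).

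Klf6 (ENSMUSG00000000078, chromosome 13, 5861482 to 5870394, 5 coding exons) had the most counts of the 10. Its level was 724, 850.0 and 772 CPM with IFNg and TNF, 455, 535 and 625 CPM with IFNg and LPS and 491, 554 and 564 CPM with IFNg and hypoxia. It was 337, 369 and 392.3 CPM with IFNg and IL1b, 314, 316 and 366 CPM with IFNg and 172, 169 and 184 CPM in control. The control libraries lay below all others, and the LPS and hypoxia libraries lay between IFNg and TNF. IFNg alone raised Klf6 1.89-fold (0.92 ± 0.12, edgeR adjusted p = 5.28e-07). It rose further with TNF (1.24 ± 0.12, adjusted p = 1.35e-09), LPS (0.70 ± 0.12, adjusted p = 4.72e-05) and hypoxia (0.69 ± 0.12, adjusted p = 4.79e-05), and with IL1b it was at 0.14 ± 0.12.

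To compare members with each other, levels were divided by coding width and are given in CPM per kilobase (kb). The summed level of the 6 AP-1 genes was 1148 ± 86.4 CPM per kb with IFNg and TNF, 607 ± 63.1 with LPS, 696 ± 37.2 with hypoxia, 410.2 ± 60.4 with IL1b, 381 ± 45.9 with IFNg alone and 377 ± 53.1 in control (SD, n = 3). Atf3 was the largest term in every group, with a share of 46.3% ± 1.70 with TNF, 63.7% ± 6.66 with LPS, 58.7% ± 4.37 with hypoxia, 63.5% ± 3.15 with IL1b, 59.2% ± 0.880 with IFNg and 55.9% ± 2.44 in control. The third LPS library had the lowest sum of its group, 536 CPM per kb against 658 and 627. Its Atf3 share was the highest of the group, 71.0% against 57.9% and 62.1%. Junb made up 22.5% ± 2.09 with TNF and 11% ± 0.964 with IFNg, and Fosl2 7.44% ± 0.223 with TNF and 1.78% ± 0.441 with IFNg. With hypoxia the share of Jun was 12.7% ± 0.386, against 8.35% ± 1.10 with IFNg, and that of Fos was 7.48% ± 0.626, against 13.7% ± 0.580 with IFNg. The ratio of Fos to Jun per length was 0.600, 0.613 and 0.551 in the hypoxia libraries, below 1 in each, against 1.37, 1.87 and 1.75 in the IFNg libraries. It averaged 2.31 ± 0.613 with TNF, 2.92 ± 0.458 with LPS, 2.24 ± 0.292 with IL1b and 1.12 ± 0.314 in control. Klf4 per length stood at 9.26, 14.7 and 16.1 times Klf2 with TNF, against 0.591, 0.393 and 0.584 times with IFNg and 0.971, 1.11 and 1.41 times in control. These shares and ratios are of transcripts, carry no test, and include the Jund counts that may hold antisense reads.

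**Figure D3:**
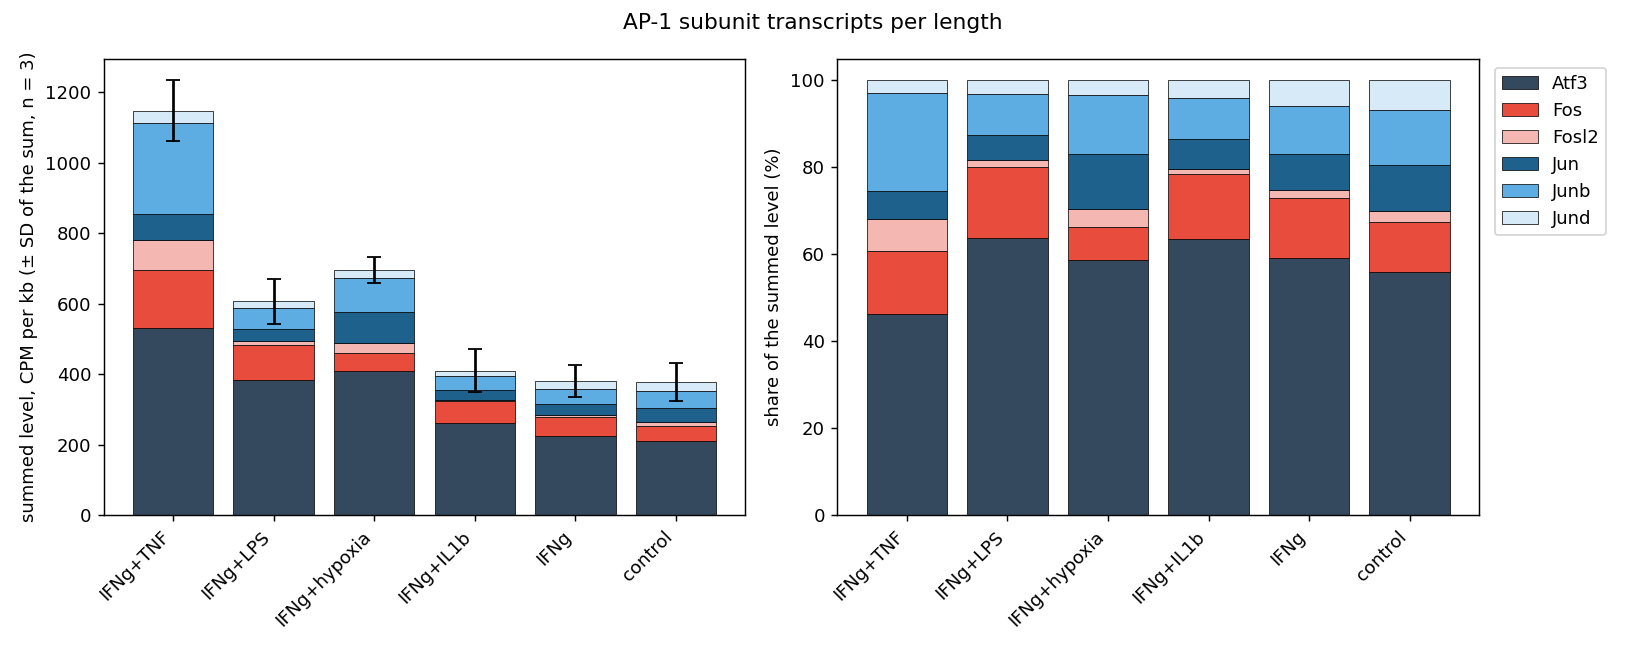
Left, summed level of the 6 AP-1 transcripts in CPM per kb (linear axis, from 0), stacked by gene as means of 3 libraries with the SD of the sum; right, mean share of each gene in that sum in percent. The IFNg and TNF bar is the tallest and has the widest Junb and Fosl2 bands, and the hypoxia bar has a wide Jun band and a narrow Fos band.

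The additions were also set against each other directly. TNF and LPS differed in 9 members, 8 higher with TNF and Klf2 lower, beside 25.3% of tested genes called, 13.1% higher and 12.2% lower. The largest difference was that of Fosl2 (3.03 ± 0.25, edgeR adjusted p = 7.18e-10) and the smallest called one that of Atf3 (0.47 ± 0.12, adjusted p = 0.00556). Scaled to the totals implied by the RPKM values, Atf3 (0.22, adjusted p = 0.177) and Klf6 (0.29, adjusted p = 0.0507) no longer passed. Jund was gained, making 10, after a correction for GC content (0.74, adjusted p = 0.0356) and without the first LPS library (1.21, adjusted p = 0.0460). TNF and hypoxia differed in 8 members, 7 higher with TNF and Klf2 lower (-2.02 ± 0.23, adjusted p = 5.65e-08), beside 39.0% called, 18.9% higher and 20.1% lower; Jun and Jund did not pass. The Atf3 call there (0.38 ± 0.12, adjusted p = 0.0156) was lost without the first or second hypoxia library or the third TNF library (adjusted p = 0.0505, 0.0530 and 0.0694) and when scaled to the RPKM-implied totals (0.31, adjusted p = 0.0516), and the Egr1 call (1.28 ± 0.39, adjusted p = 0.0102) without the first hypoxia or the second TNF library (adjusted p = 0.0670 and 0.0547).

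LPS and hypoxia each raised Klf4, Klf6 and Atf3 over IFNg. Set against each other, 1 of the 10 was higher with LPS and 4 were lower, beside 30.0% of tested genes called, 14.4% higher and 15.5% lower. Fos was higher with LPS (0.93 ± 0.15, edgeR adjusted p = 2.41e-05), while Fosl2 (-1.47 ± 0.24, adjusted p = 2.61e-05) and Jun (-1.34 ± 0.20, adjusted p = 9.00e-06) were lower with LPS. Junb (-0.70 ± 0.25, adjusted p = 0.0431) and Klf2 (-0.68 ± 0.22, adjusted p = 0.0206) also passed, but leaving out any 1 of the 6 libraries lost at least 1 of these 2 calls, and both were lost, leaving 3 members, without the first hypoxia library or without the second LPS library. Without the third LPS library Junb was at -0.43 (adjusted p = 0.154) and 4 members passed. After correction for GC content the Klf2 call was lost (-0.59, adjusted p = 0.0662) and that of Junb was not (-0.69, adjusted p = 0.00103). Both calls were lost when scaled to the RPKM-implied totals (adjusted p = 0.111 for Junb and 0.0827 for Klf2) and in the fit on only the groups compared (adjusted p = 0.0891 and 0.0560), and that of Junb with no filter on low counts (adjusted p = 0.103) and with the replicate block (adjusted p = 0.0646). The differences of Klf4 (-0.19 ± 0.19, 95% interval -0.56 to 0.18), Klf6 (0.0056 ± 0.12, -0.22 to 0.23) and Atf3 (-0.088 ± 0.12, -0.33 to 0.15) did not pass.

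Against control, which shares its 3 libraries across all such comparisons, IFNg with TNF changed 9 members (8 higher, Klf2 lower), beside 49.9% of tested genes called, 25.7% higher and 24.2% lower. After correction for GC content Jund also passed (0.77, adjusted p = 0.0153), making 10. IFNg with LPS changed 4, with Fos, Atf3 and Klf6 higher and Klf2 lower, beside 36.9%, 19.5% and 17.3%. The LPS libraries gave Klf2 at -0.85 ± 0.22 (edgeR adjusted p = 0.00279), a call lost after correction for GC content (-0.50, adjusted p = 0.112). Junb with LPS (0.28 ± 0.25, adjusted p = 0.427) passed without the third LPS library (0.56, adjusted p = 0.0475), which brought the count to 5, and after correction for GC content with all libraries kept (0.58, adjusted p = 0.00408). Egr1 passed as higher with LPS (1.37, adjusted p = 0.0145) and with IL1b (1.26, adjusted p = 0.0337) without the first control library. IFNg with hypoxia raised 6 (Fosl2, Jun, Junb, Atf3, Egr1 and Klf6) and lowered 0, beside 40.1%, 21.0% and 19.1%. Of these, Junb (0.98 ± 0.25, adjusted p = 0.00418) lost its call when scaled to the RPKM-implied totals (0.59, adjusted p = 0.0561), as did Jun with TNF (0.41, adjusted p = 0.0844). Egr1 with hypoxia (1.21 ± 0.40, adjusted p = 0.0172) lost its call without the second or the third control library or the second hypoxia library (adjusted p = 0.0875, 0.0680 and 0.0957), when scaled to the RPKM-implied totals (adjusted p = 0.103) and in the fit on only the groups compared (adjusted p = 0.0784). With hypoxia, Fos passed as higher without the third control library (0.46, adjusted p = 0.0232) and Klf2 as lower when scaled to the RPKM-implied totals (-0.57, adjusted p = 0.0309). IFNg with IL1b changed 6, with Fos and Klf6 higher and Fosl2, Jun, Klf2 and Klf4 lower, beside 26.7%, 14.9% and 11.8%. Fosl2 there was 2.06-fold lower (-1.04 ± 0.25, adjusted p = 0.00222) and Klf2 1.90-fold lower (-0.92 ± 0.22, adjusted p = 0.00194; -0.64, adjusted p = 0.0522 after correction for GC content), while Jun (-0.55 ± 0.20, adjusted p = 0.0462) lost its call without the second control library (-0.34, adjusted p = 0.288) and without each of 4 other libraries. The Fos call (0.50 ± 0.15, adjusted p = 0.0128) was lost without the first or second control library or the second IL1b library (adjusted p = 0.0752, 0.0642 and 0.0520) and when scaled to the RPKM-implied totals (adjusted p = 0.0691). Atf3 with IL1b (0.32 ± 0.12, adjusted p = 0.0624) passed without the first IL1b library (0.42, adjusted p = 0.0221) and with the replicate block (0.31, adjusted p = 0.0409).

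Ordered by group mean, 8 of the 10 genes were highest with IFNg and TNF, Jun with IFNg and hypoxia, and Klf2 in control. The lowest mean was with IFNg and IL1b for Fosl2, Jun, Junb, Jund and Klf4, in control for Fos, Atf3, Egr1 and Klf6, and with IFNg and TNF for Klf2. Of the 50 neighbouring pairs in these orders, 17 differed in the edgeR test, beside 10.3% of 57815 such pairs over all tested genes. TNF stood apart from each neighbour in the order for all genes but Jun, whose difference from the hypoxia mean above it did not pass, and Jund. For Fos the order below TNF and LPS (IL1b, IFNg, hypoxia, control) held no called step, nor did the order LPS, control, IFNg, IL1b for Fosl2 and Junb or the order control, IFNg, hypoxia for Klf2. Egr1 had 1 called step, from TNF to hypoxia, and Jund had 0. Klf6 was the one gene for which IFNg and control were neighbours that differed.

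The tested genes whose 6 group means ran most like each member were found by the root mean square difference of centred log2 CPM, given in brackets. For Fos they were Traf2 (0.0805) and Ubap1 (0.0871), and for Jun Khnyn (0.0776) and Pygl (0.118). Atf3 was nearest to Tspan3 (0.0802) and Naa80 (0.0823), Junb to Foxp4 (0.145) and Ppp1r15a (0.164), and Jund to Smurf2 (0.0773) and Trpm4 (0.0973). Klf6 was nearest to Sppl2a (0.105) and Cttn (0.105), Klf4 to Ldlrad4 (0.181) and Zfp827 (0.186), Klf2 to Lpar6 (0.184) and Kcnk6 (0.185), and Egr1 to Plek (0.155) and Pcdh7 (0.172). Zfp827 is at 0 in the IL1b and IFNg libraries and had its highest mean, 0.920 ± 1.12 CPM, with TNF, so its nearness rests on very low counts. Cttn is low too, with its highest mean, 3.07 ± 0.646 CPM, with TNF and 2.85 ± 2.48 CPM with LPS. Fosl2 had no close neighbour: Fam71f2 (0.363), which is at 0 in the IL1b, IFNg and control libraries, and Uck2 (0.368) were the nearest. Traf2, an adaptor of TNF receptors, had 107 ± 13.2 CPM with IFNg and TNF, 65.6 ± 17.5 with LPS, 33.4 ± 8.09 with hypoxia, 44.1 ± 7.2 with IL1b, 36.8 ± 3.55 with IFNg and 31.0 ± 2.49 in control. With only 6 means per gene, such nearness is a description.

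Relatives of the members were counted over lists chosen with earlier results known. Their counts stand beside the shares of all tested genes called, 44.7% with TNF, 20.3% with LPS, 25.2% with hypoxia, 0.303% with IL1b and 23.6% for IFNg against control. Of 20 other AP-1 and small bZIP factors, 19 were tested: 10 rose and 3 fell with TNF (median log2 fold change 0.52), 6 rose and 1 fell with LPS (0.22, or 0.18 with the gene at 0 in 1 group held at a bound of 3 counts per library), 6 rose with hypoxia (0.34) and 1 rose with IL1b (-0.027). IFNg against control raised 8 and lowered 2 (0.40). Nfil3, a bZIP repressor, stood at 296 ± 17.6 CPM with TNF against 38.5 ± 2.13 CPM with IFNg (2.94 ± 0.14, edgeR adjusted p = 1.69e-15), and rose by 2.19 ± 0.14 with hypoxia and 1.11 ± 0.13 with LPS. Mafg, a small Maf partner, rose by 2.78 ± 0.36 with TNF and 1.66 ± 0.35 with LPS. Jdp2, a Jun dimerization protein, rose by 3.41 ± 0.31 with IFNg over control, and by a further 1.89 ± 0.26 with TNF, 1.87 ± 0.26 with hypoxia and 0.91 ± 0.26 with LPS. Batf2, a bZIP factor induced by IFNg, had 235 ± 15.3 CPM with IFNg against 8.27 ± 2.71 CPM in control (4.82 ± 0.20, adjusted p = 4.14e-16). The 1 gene of the list called with IL1b was Atf4, a factor of the integrated stress response (0.61 ± 0.12, adjusted p = 0.0120).

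Of 5 other Egr factors and Nab corepressors, 4 were tested, and 3 rose with TNF (median 1.3), 2 with hypoxia (0.75), 1 with LPS (0.50) and 0 with IL1b (0.13). Nab2, which binds and represses Egr proteins, rose with TNF (1.31 ± 0.18, edgeR adjusted p = 1.18e-06) and hypoxia (1.21 ± 0.18, adjusted p = 1.28e-05), and Nab1 with TNF (1.29 ± 0.15) and LPS (0.72 ± 0.15). Egr2, a factor of alternative activation, stood at 0.372 ± 0.121 CPM with IFNg against 11.6 ± 3.74 CPM in control (-4.93 ± 0.85, adjusted p = 5.75e-05), the 1 called gene of this list there (median -0.12). Over IFNg, Egr2 was higher with TNF, at 3.76 ± 0.979 CPM (3.31 ± 0.82, adjusted p = 0.00157), and with hypoxia, at 2.64 ± 0.537 CPM (2.80 ± 0.82, adjusted p = 0.0119). Of 18 other Klf and Sp factors, 12 were tested. With hypoxia 6 of them rose and 0 fell (median 0.69), among them Klf10 (1.34 ± 0.15), Klf9 (2.01 ± 0.49), Klf11 (1.46 ± 0.47) and Klf3 (0.86 ± 0.18). With TNF 2 rose (median 0.21), Klf7 (2.72 ± 0.57) and Klf9 (2.0 ± 0.49), with LPS 2 fell (-0.061), Klf11 (-1.40 ± 0.49) and Sp1 (-0.49 ± 0.13), and with IL1b 0 changed (-0.10). IFNg lowered Klf9 (-2.98 ± 0.50) and Klf10 (-1.03 ± 0.15) relative to control (list median -0.18).

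Among 21 other immediate-early genes (20 tested), 12 rose and 2 fell with TNF (median 0.87), 5 rose with hypoxia (0.37), 4 rose and 1 fell with LPS (0.21) and 0 changed with IL1b (-0.21), while IFNg raised 2 and lowered 4 against control (-0.41). Ier3, an early gene that modulates cell survival, had 129 ± 27.3 CPM with TNF against 1.68 ± 0.550 CPM with IFNg (6.24 ± 0.42, edgeR adjusted p = 1.63e-10), and rose by 4.83 ± 0.41 with hypoxia and 2.97 ± 0.40 with LPS. Nr4a2, an orphan nuclear receptor, rose by 4.98 ± 0.49 with TNF, 2.90 ± 0.46 with hypoxia and 2.0 ± 0.46 with LPS. Zfp36l1, an RNA-binding protein that destabilizes early messages, rose with hypoxia (1.15 ± 0.20) and fell with LPS (-1.41 ± 0.21). Its level was low with TNF too, at 15.2 ± 2.57 CPM against 71.3 ± 8.48 CPM with hypoxia. The difference between TNF and LPS did not pass (0.34 ± 0.21, edgeR adjusted p = 0.267). Of 9 serum response and Mef2 factors, 5 rose and 3 fell with TNF (median 0.61), 2 fell with LPS (0.060), 2 rose with hypoxia (0.059), 0 changed with IL1b (-0.014), and 3 fell with IFNg against control (-0.24). Mef2c fell with TNF (-2.06 ± 0.23) and LPS (-1.25 ± 0.22), while Mef2d rose with TNF (0.86 ± 0.14) and hypoxia (0.53 ± 0.14).

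Of 19 MAP kinases and their upstream kinases, 7 rose and 3 fell with TNF (median 0.19), 2 rose and 3 fell with LPS (0.044), 2 rose and 1 fell with hypoxia (-0.036), 0 changed with IL1b (0.021), and 2 rose and 1 fell with IFNg against control (0.092). The counts of this list lie near the shares of all tested genes called. So do those of the other immediate-early genes and of the serum response and Mef2 factors with LPS and with hypoxia. The count of other Klf and Sp factors lies near the share with LPS and below it with TNF. Map2k1, which encodes MEK1 of the ERK pathway, rose by 1.37 ± 0.11 with TNF, 0.70 ± 0.11 with hypoxia and 0.48 ± 0.11 with LPS. Map3k5, which encodes the stress kinase ASK1, fell with each of the 3 (-1.12 ± 0.15, -0.58 ± 0.15 and -1.16 ± 0.15 in the same order). Mapk9, a Jun kinase gene, had 107 ± 4.85 CPM with IFNg against 37.7 ± 6.33 CPM in control (1.51 ± 0.14, edgeR adjusted p = 1.39e-09). Of 18 genes reported as targets of AP-1, Egr1, Klf2 or Klf4 in macrophages, 12 rose and 4 fell with TNF (median 1.62), 9 rose and 1 fell with LPS (1.32), 8 rose and 4 fell with hypoxia (0.93, or 0.76 with the gene at 0 at its bound), 1 rose with IL1b (0.026), and 7 rose and 4 fell with IFNg against control (0.0087, or 0.038 with the 3 genes at 0 at their bound). Ptgs2, the inducible cyclooxygenase, had 5847 ± 524 CPM with TNF against 23.4 ± 3.59 CPM with IFNg (7.96 ± 0.20, adjusted p = 3.46e-19), and rose by 4.32 ± 0.17 with LPS and 1.3 ± 0.16 with IL1b. Its mean with hypoxia, 119 CPM, also lay above that with IFNg. Arg1, an arginase of alternatively activated macrophages, rose by 6.61 ± 0.33 with hypoxia.

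Base composition differed between libraries, and some members are GC-rich. In the third IFNg and LPS library the median deviation from the group mean was -0.30 log2 CPM in the bin of genes with the highest GC content and 0.18 in the bin with the lowest, of 10 bins. The first LPS library ran the other way (0.25 and -0.095), and the difference between these bins was from -0.19 to 0.20 in the 15 libraries of the other groups. Of the members, the transcripts of Jund, Junb and Klf2 had a higher GC content than 99.9%, 98.9% and 98.3% of tested genes, and that of Klf6 than 12.2%. After a correction for GC content, Junb with TNF was at 2.65 (edgeR adjusted p = 2.39e-13), Klf2 with TNF at -2.08 (adjusted p = 1.49e-07), Junb with hypoxia at 1.21 (adjusted p = 1.19e-06) and Jund with TNF at 0.56 (adjusted p = 0.0821). Jund passed with TNF against LPS and against control after the same correction. The correction was fitted to each library's deviation from the mean over all libraries, not from its group mean. It therefore also took out GC trends between groups, and the values it moved cannot be credited to single libraries alone. Without the third LPS library, 7 members were called with LPS over IFNg in place of 5, Fosl2 and Junb being added, and the count of 9 between TNF and LPS did not change.

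**Figure D4:**
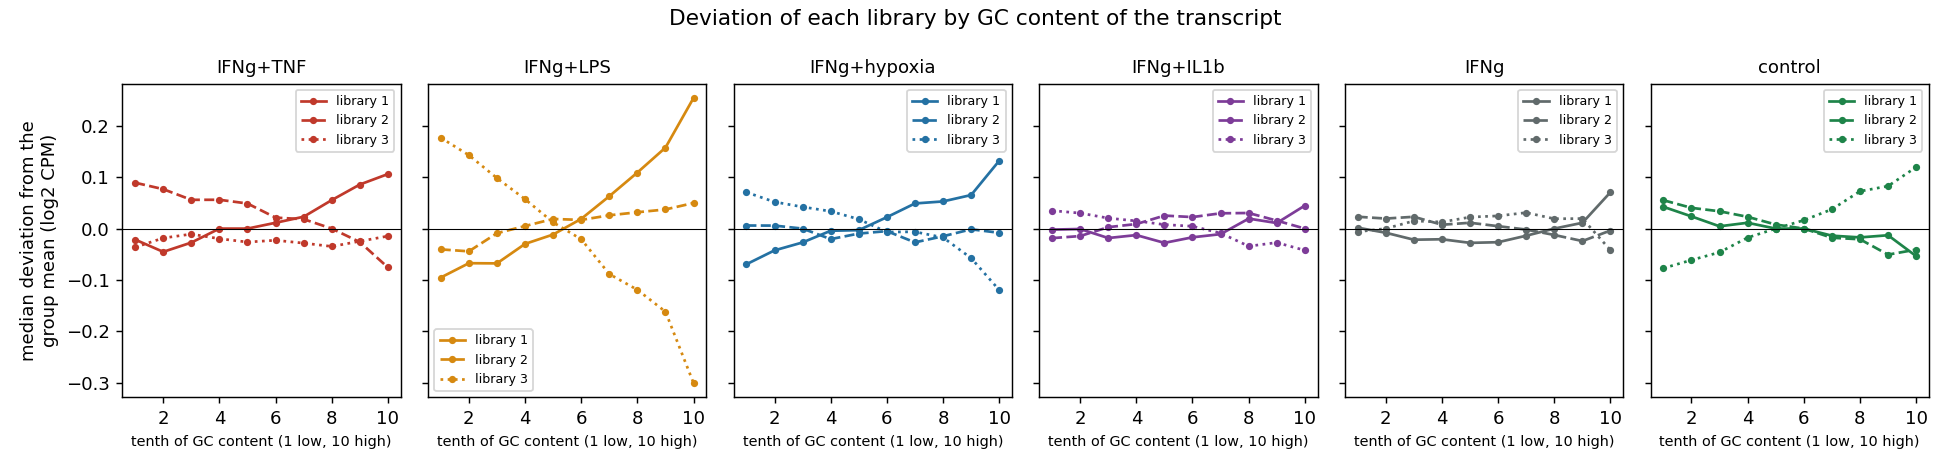
Median deviation of each library from its group mean (log2 CPM) over 10 bins of genes ordered by transcript GC content, 1 panel per group and 1 line per library. The first and the third IFNg and LPS libraries diverge at high GC content, reaching 0.25 and -0.30, while the lines of the other groups stay closer to 0.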

How the data were processed

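Poly(A) RNA (100 ng, stranded kit, 50 bp single-end reads) had been sequenced, per the labels' protocols, and the submitters' processing notes name GSNAP and mm10. No source used here states the counter, the annotation or the use of strand. The deposited counts are whole reads per gene over coding parts. The deposited RPKM values served only to derive each library's total, between 22728833 and 39859629; counts made up 51.68 to 56.45% of it. Of 22598 genes, 22457 had a symbol.

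Genes passing edgeR's filterByExpr (11563) were tested with edgeR 4.0.16 (R 4.3.3, limma 3.58.1): TMM factors (0.8051 to 1.186), quasi-likelihood fit over 18 libraries with 1 mean per group, Benjamini-Hochberg adjustment within each comparison and a threshold of 0.05. Intervals are 1.96 SE wide on each side. A count of 3 equals 0.151 to 0.255 CPM. DESeq2 1.42.0, other scalings, no filter, a replicate block, a fit on only the groups compared and leaving out each library were alternatives. A lowess correction for GC content was added after seeing the data, as were the alternatives for the comparisons between additions and with control. Its offsets came from deviations from the mean over all 18 libraries, so GC trends between groups were removed too. GC content was known for 99.7% of tested genes. Named genes were the members, up to 4 called genes of largest change per list, and the 2 nearest patterns. The members, 7 pathway lists and 9 marker lists were chosen with earlier results of these data known. Scripts were tested on simulated counts.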

Additional observations from a re-analysis of the deposited data

How the results depend on the processing

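The counts of members called stayed within 1.5 times for 159 values and moved beyond it for 6. These were IL1b against IFNg, with 1 member in the fit on only the groups compared and with DESeq2, and LPS against hypoxia, with 3 under RPKM-implied totals and in the fit on only the groups compared, and 3 to 4 when each library was left out. The cause was not tested. Of values called in the main analysis, 853 kept their call and 44 lost it, and of those not called, 589 kept direction and side, 23 passed and 51 changed sign. Over all genes IL1b against IFNg gave 35 calls with edgeR, 84 with DESeq2 and 596 at an unadjusted p under 0.05. The replicate numbers were not taken to pair the samples, since not every same-number correlation of deviations was above 0.1. These were 0.00871 to 0.149 over 15 same-numbered pairs in the comparisons with IFNg and of IFNg with control, with 3 above 0.1, and -0.095 to 0.233 over the 45 of all groups, with 9 above 0.1. The own number was best in 12 of the 15 and 26 of the 45, a hint of pairing from the data. The sample titles carry the replicate number as a prefix shared across the groups, and what it marks is not stated. With the replicate block 2 members were called for IFNg against control, 9 with TNF, 0 with IL1b, 5 with LPS, 6 with hypoxia, 4 for LPS against hypoxia, 7 for IL1b against control and 16 of the neighbouring pairs. Counts as low as 28 (Egr1) limit the precision of the least abundant members.

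The log2 fold changes that changed sign were all below the threshold in the main analysis, and the cause was not tested. With the correction for GC content, the values were 0.055 for Junb (IFNg against control), 0.21 for Jund (IFNg against control), 0.12 for Klf2 (IFNg against control), 0.0086 for Klf4 (IL1b against IFNg), 0.037 for Fos (hypoxia against IFNg), -0.012 for Klf6 (LPS against hypoxia), 0.025 for Jund (LPS against control), 0.34 for Jund (hypoxia against control), 0.095 for Klf2 (hypoxia against control) and 0.036 for Junb (IL1b against control). With RPKM-implied totals, the values were -0.045 for Atf3 (IFNg against control), 2.7e-04 for Klf4 (IL1b against IFNg), -0.17 for Jund (hypoxia against IFNg), -0.0053 for Egr1 (hypoxia against IFNg), 0.081 for Atf3 (LPS against hypoxia), -0.050 for Jund (TNF against control), -0.18 for Fosl2 (LPS against control) and -0.11 for Fos (hypoxia against control). With size factors of DESeq2's kind, the values were 0.0057 for Fos (hypoxia against IFNg). With DESeq2, the values were 0.0057 for Fos (hypoxia against IFNg). With the replicate block, the values were -5.4e-04 for Klf6 (LPS against hypoxia). Leaving out 1 library at a time gave -0.44 to 0.094 for Jund and -0.23 to 0.0032 for Klf2 (IFNg against control); -0.26 to 0.071 for Junb and -0.24 to 0.13 for Klf4 (IL1b against IFNg); -0.065 to 0.33 for Jun, -0.61 to 0.25 for Jund and -0.22 to 0.038 for Egr1 (LPS against IFNg). For the other comparisons the same ranges were -0.062 to 0.10 for Fos, -0.015 to 0.24 for Jund, -0.028 to 0.49 for Egr1 and -0.22 to 0.11 for Klf2 (hypoxia against IFNg); -0.67 to 0.17 for Jund and -0.11 to 0.15 for Klf6 (LPS against hypoxia); -0.039 to 0.21 for Fosl2, -0.40 to 0.012 for Jun and -0.77 to 0.069 for Jund (LPS against control); -0.37 to 0.17 for Jund, -0.30 to 0.030 for Klf2 and -0.20 to 0.039 for Klf4 (hypoxia against control).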
